A study of Mus musculus with 14 samples.

Results

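The genes described here build, maintain or regulate cilia, and they were followed in mouse embryonic stem cells differentiating into neural cells with and without induced GLI1. The group is a list of 50 named genes of intraflagellar transport, the BBSome, the transition zone, the Evc complex, ciliary cargo delivery and the motile axoneme, looked up by Entrez identifier. Of these 50 genes, 48 were among the 15108 genes of the authors' deposited table for day 5 (D5) and 48 among the 15744 genes of that for day 10 (D10), with 47 in both. Dnah5 was analysed at D10 only and Spef2 at D5 only, and Spag6 was not analysed beyond its promoter.

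All 14 samples came from 1 line, GLI1-FTA, made in the A2Lox.cre strain of mouse embryonic stem cells, in which a doxycycline-driven transgene sits at a fixed landing site. The induced samples received 500 ng/ml doxycycline for 48 h, from day 3 to day 5. They were harvested at D5 as neural progenitors (4 samples) or, after a further 5 days without the drug, at D10 as immature neurons (3 samples). The controls carried the same transgene and were untreated (4 samples at D5, 3 at D10), so an effect of the drug and an effect of GLI1 cannot be told apart. The sources used here do not say whether the line is 1 clone or whether replicates were separate cultures, so the p-values measure only the spread between these samples.

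Primary cilia are single, non-beating antennae that most neural progenitors carry at their apical surface. In vertebrates the Hedgehog signal passes through them: the receptor Patched leaves the cilium when ligand binds, Smoothened enters, and GLI proteins are processed and activated on the way through the ciliary tip. Intraflagellar transport (IFT) trains carry cargo out and back, the BBSome carries membrane proteins along, and the transition zone at the base controls entry. Motile cilia add dynein arms and other axonemal parts, switched on by the factors FOXJ1 and RFX. In the neural tube such genes are known from the floor plate, the ventral midline that responds to the strongest Hedgehog signal.

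The values are what the authors obtained when they compared induced and control samples within a day. Single libraries have no values of their own here, so sequencing depth is unknown and the spread of single samples cannot be shown. Each gene has a log2 fold change, an average log2 CPM (the reads of a gene scaled to a common library size, averaged over the samples compared), a p-value and an adjusted p. A gene counts as called where its adjusted p is under 0.05. The standard error (SE) beside a log2 fold change was derived here from its p-value, and each 95% interval from that SE. Gli1, the induced gene, stood at 4.79 (SE 0.25) in the authors' deposited table for D5 and at 0.57 (SE 0.18, adjusted p = 0.780) in that for D10. Markers of the labelled cell types were looked up, which shows whether their transcripts were present but not the share of each cell type. All 8 neural progenitor markers looked for were tested on both days, at average log2 CPM from 6.04 to 9.08 in the authors' deposited table for D5 and from 4.42 to 7.75 in that for D10. All 10 neuron markers were likewise tested on both days, at 1.82 to 7.72 (D5) and 3.58 to 9.11 (D10) in the authors' deposited tables. Transcripts on the lists of other cell types were present on both days. The authors' deposited tables hold 12 of 12 endoderm markers at D5 (0.77 to 8.36) and 11 at D10 (3.45 to 8.58), and 7 of 9 surface epithelium markers at D5 (0.059 to 6.88) and 9 at D10 (-0.06 to 9.04).

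Many cilium promoters carry an X-box, the DNA element that RFX factors bind, and it is shown here because the RFX factors are among the genes described. An arm of it, GTTGCC, which reads GGCAAC on the other strand, was found on either strand in 19 of 50 promoter entries of the group (38.0%), against 12.5% of all 32851 entries and 12.7% of the 13958 entries of genes tested at D5. Promoters were taken from RefSeq (GRCm38.p6), as 250 bases before and 50 after a start, and 44 of the 50 genes had at least 1. This arm was picked after several spellings of the X-box had been tried, so the shares are descriptive. The longer spelling ATGGNAAC, the facing arm with bases of the spacer, overlaps the first where N is C, and was found on either strand in 1 of 50 entries (2.0%, Dnah5) against 4.46% of all. An example from each functional class, the first by name with enough promoter around the match, is given 5′ to 3′ on the strand that reads GTTGCC, with that arm in capitals.
Ift172, IFT-B (chr5:31291098-31291117, - strand): cacGTTGCCtgtgcgtcagc
Ift140, IFT-A (chr17:25015966-25015985, - strand): gagGTTGCCgtcacaacacg
Dync2h1, retrograde motor (chr9:7177014-7177033, + strand): gcaGTTGCCaagctccgtcg
Bbs1, BBSome (chr19:4906610-4906629, - strand): ctgGTTGCCaaggcgacgcc
Arl13b, ciliary membrane (chr16:62847205-62847224, - strand): ccaGTTGCCtagttaccaga
Evc, Evc complex (chr5:37337056-37337075, + strand): cagGTTGCCctgagtcctga
B9d1, transition zone (chr11:61505153-61505172, - strand): gctGTTGCCaggaggctctc
Rfx2, transcription factor (chr17:56831108-56831127, - strand): accGTTGCCgggcgcaacgc
Spag6, motile axoneme (chr2:18698982-18699001, + strand): ctgGTTGCCcaggagtgtgg

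The first comparison asks how these genes responded while GLI1 was induced. At D5, 1 of the 48 cilium genes tested rose, 0 fell and 47 did not pass. The gene that rose was Rab34, a small GTPase that acts early in cilium assembly, when the ciliary vesicle forms on the mother centriole, and that is needed for a full Hedgehog response. Over all genes of the authors' deposited table for D5, 4.44% were called, and 2.34% were called higher, so 1 of 48 is near that background. At an unadjusted p under 0.05 the group again held 1 gene, Rab34, where 10.7% of all genes had such a p.

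Rab34 (Entrez 19376) was 1.60-fold higher in induced than in control samples at D5. Its log2 fold change was 0.68 in the authors' deposited table, with an adjusted p of 2.40e-06, and the SE derived from it is 0.12. The 95% interval runs from 1.35-fold to 1.89-fold. Ordered by p-value it came 174th of 15108 genes, and its average log2 CPM was 4.79 in the authors' deposited table. Its call held in each of the 6 alternative settings, with an adjusted p of at most 0.000412. All of these settings start from the same deposited p-value, so they add no independent evidence. Among protein-coding and long non-coding genes of GENCODE M21, the types searched, none overlaps Rab34. Since the samples are bulk cultures, more cells that express a gene and more of its RNA per cell cannot be told apart.

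Cell type markers moved at D5 alongside Rab34. Of 9 floor plate markers tested, 8 rose and 0 fell, around a median log2 fold change of 1.37 in the authors' deposited table, with the smallest p-values for Spon1, Shh, Nkx6-1 and Slit2. Of the 6 tested node and notochord markers 3 were higher, namely Shh, Foxa2 and T, the first pair of which are floor plate markers too. On the lower side were 4 of 10 neuron markers (Nefl, Nefm, Stmn2 and Tubb3) and 3 of 7 surface epithelium markers (Cdh1, Epcam and Esrp1). Clic6 was lower among 5 markers of choroid plexus and ependyma, which carry motile cilia. Of 12 endoderm markers 4 were lower, among them Gata4 and Gata6, and 2 higher, Foxa1 and Foxa2, which the floor plate list holds as well. Of the 8 neural progenitor markers 0 were called. Summed levels of these lists in each group could not be given, and their part in the value of Rab34 was not tested.

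The sequences before the Rab34 starts are printed because Rab34 is the gene of the group that responded. RefSeq gives 2 promoter entries (GRCm38.p6), and the 250 bases before each start are shown 5′ to 3′ on the + strand. Neither holds the core of the GLI binding site, GGGTGGTC on either strand, which is in 0.807% of all promoter entries and in 0 of the 50 of the group. Capitals mark the single stretch within 1 mismatch of that core (on the other strand, where the core reads GACCACCC), which starts 250 bases before the first start. Such a near match is in 22.1% of all entries, in 26.3% of those of genes tested at D5 and in 28.0% of those of the group, and it was looked for after the sequence had been seen.
Rab34, first start (chr11:78188177-78188426, + strand): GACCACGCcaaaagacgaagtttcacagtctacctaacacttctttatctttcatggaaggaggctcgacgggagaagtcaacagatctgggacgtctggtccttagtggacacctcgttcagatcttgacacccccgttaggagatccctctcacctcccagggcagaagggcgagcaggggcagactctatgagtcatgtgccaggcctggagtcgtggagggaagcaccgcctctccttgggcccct
Rab34, second start (chr11:78188498-78188747, + strand): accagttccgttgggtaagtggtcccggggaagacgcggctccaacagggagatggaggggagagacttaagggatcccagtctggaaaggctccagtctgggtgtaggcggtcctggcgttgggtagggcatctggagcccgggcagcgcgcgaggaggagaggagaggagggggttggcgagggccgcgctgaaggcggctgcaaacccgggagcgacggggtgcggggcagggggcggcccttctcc

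**Figure D1:**
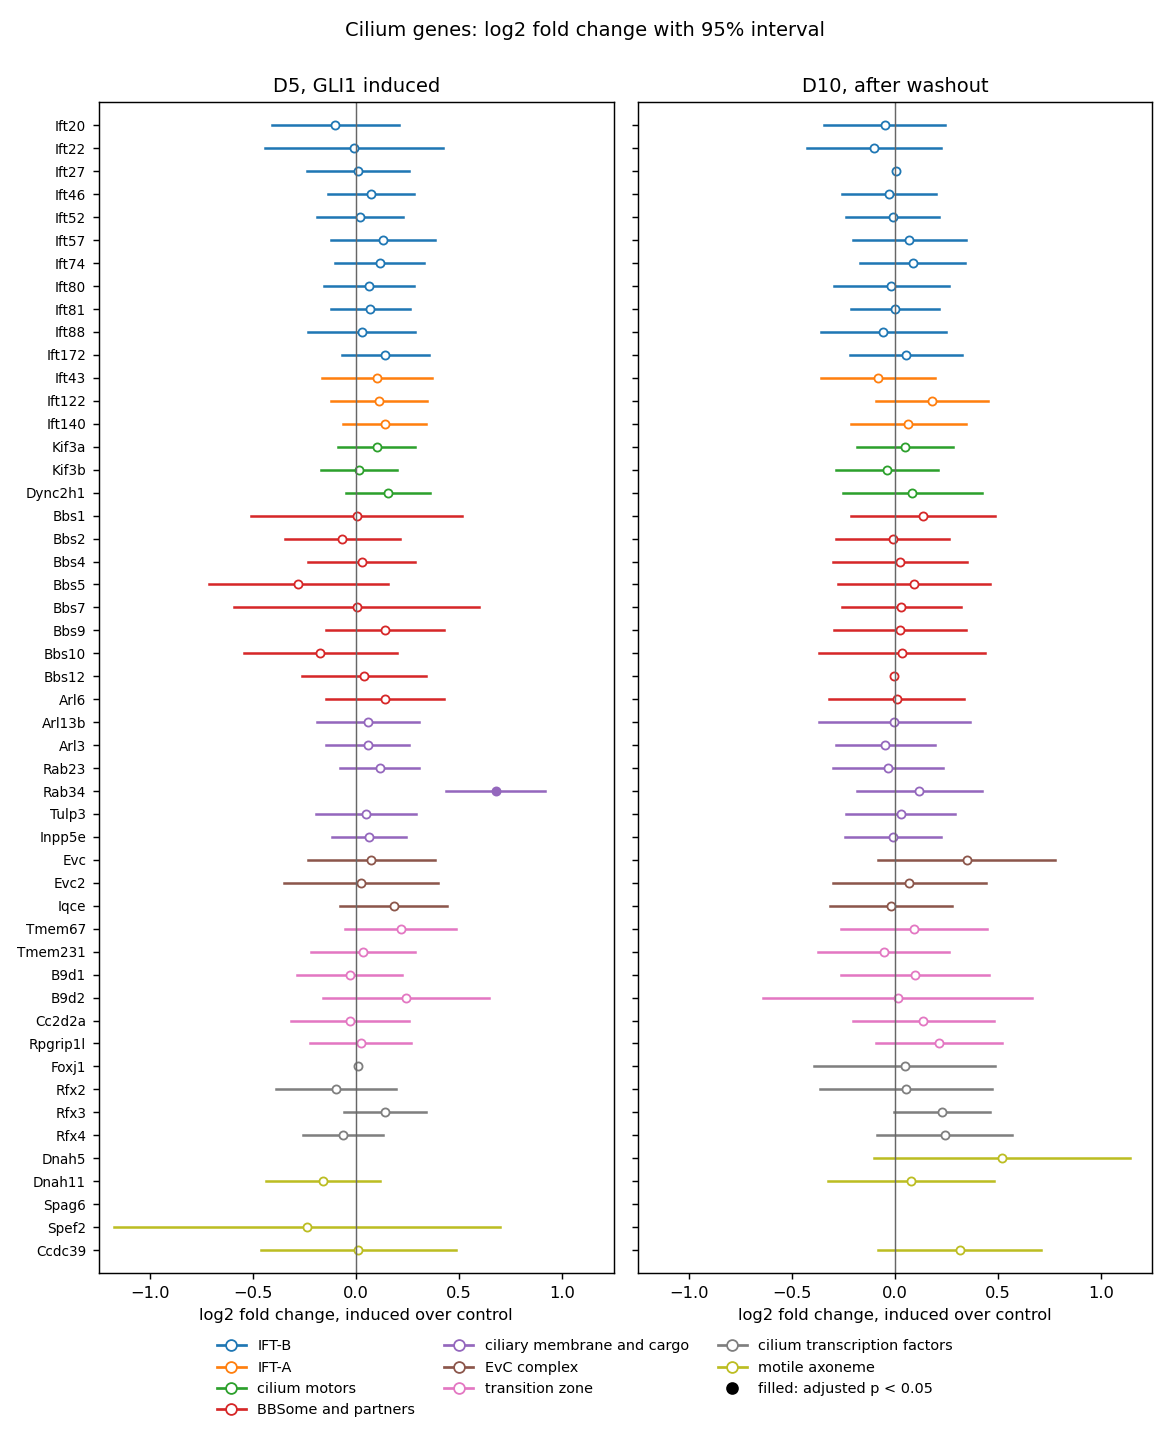
Log2 fold change of induced over control samples (x axis) for each cilium gene (rows, coloured by class) at D5 (left) and D10 (right), with bars for the 95% interval derived from the p-value. Filled points are called changed. Rab34 at D5, at 0.68, is the single filled point, and genes without a bar had a p-value of 1.

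The other 47 genes tested at D5 lay between -0.28 and 0.24 on the log2 scale in the authors' deposited table. In 42 of the 47 genes with an interval, the interval lay inside a 1.5-fold change in either direction, and in 46 of 47 inside a 2-fold change. Reaching past 1.5-fold were Rab34, Bbs5, Bbs7, B9d2 and Spef2, and past 2-fold only Spef2. Foxj1 had a p-value of 1 and so no interval. Of the 48 genes, 37 had a log2 fold change above 0 (77.1%), against 50.5% of all genes. The median was 0.042, against 0.0015 for all genes. The SE of a single gene of the group had a median of 0.13.

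The 11 genes of IFT-B, the complex that drives trains toward the tip, were close to 0 at D5. They ran in the authors' deposited table from -0.10 (Ift20, which also shuttles from the Golgi) to 0.14 (Ift172, the largest subunit), with 9 of 11 above 0 and a median of 0.063. Ift88, the subunit altered in the Oak Ridge polycystic kidney mouse, which has short cilia, stood at 0.027 in the authors' deposited table (95% interval -0.23 to 0.29). Ift27, which links the trains to BBSome exit, stood at 0.0096 (-0.24 to 0.26) in the authors' deposited table. For Ift81, which binds tubulin together with Ift74, the authors' deposited table gives 0.068 (-0.12 to 0.26). Ift22, Ift46, Ift52, Ift57, Ift74 and Ift80 lay between these extremes. All 11 intervals were within 1.5-fold.

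IFT-A and the motors lay in a similarly narrow range at D5. The IFT-A genes, needed for return transport and membrane protein entry, stood at 0.10 (Ift43), 0.11 (Ift122) and 0.14 (Ift140) in the authors' deposited table. For Kif3a and Kif3b, genes of the kinesin-2 motor, the authors' deposited table gives 0.10 and 0.012. Dync2h1, the heavy chain of the return motor, stood at 0.15 there (95% interval -0.05 to 0.36). None of these 6 genes was called.

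Genes of the BBSome and its partners spread more widely, with 6 of 9 above 0. Bbs5, a membrane-binding subunit, had the lowest log2 fold change of all 48 genes at D5, -0.28 in the authors' deposited table (95% interval -0.72 to 0.15, p = 0.206), at an average log2 CPM of 2.51. The chaperonin-like assembly factors Bbs10 and Bbs12 stood at -0.17 and 0.036, and Arl6, the GTPase that recruits the BBSome to membranes, at 0.14 in the authors' deposited table. For Bbs1, Bbs2, Bbs4, Bbs7 and Bbs9 the values in the authors' deposited table ran from -0.067 (Bbs2) to 0.14 (Bbs9). The intervals of Bbs1 (-0.51 to 0.51) and Bbs7 (-0.59 to 0.60) were wide, and both genes had a p-value near 1, where the derived SE is unstable.

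Besides Rab34, the genes of ciliary membrane and cargo delivery were flat at D5. Arl13b, a membrane GTPase of the cilium, stood at 0.058 in the authors' deposited table (95% interval -0.19 to 0.30). Arl3, which releases lipidated cargo inside the cilium, stood at 0.055, and the phosphoinositide phosphatase gene Inpp5e, whose product is such a cargo, at 0.063 in the authors' deposited table. Tulp3, which brings receptors in with IFT-A and restrains Hedgehog signalling, stood at 0.048 (-0.19 to 0.29). Rab23, a GTPase that also restrains the pathway, stood at 0.11 (-0.077 to 0.31) in the authors' deposited table. Rab34 thus lay above the upper interval bound of each of these 5 genes, though no test was made between genes.

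The Evc complex and the transition zone held no calls at D5. For Evc and Evc2, membrane proteins that pass the signal on from Smoothened, the authors' deposited table gives 0.073 and 0.023. Their anchor gene Iqce stood at 0.18 there (95% interval -0.077 to 0.44). In the transition zone, Tmem67, a Frizzled-like receptor of the Meckel syndrome module, stood at 0.22 (-0.052 to 0.48) and B9d2 at 0.24 (-0.16 to 0.64) in the authors' deposited table. Its partners B9d1 and Cc2d2a both stood at -0.031, Tmem231 at 0.033 and Rpgrip1l, a scaffold between module members, at 0.022 in the authors' deposited table. Another protein-coding gene overlaps 10 of the 50 genes in GENCODE M21, among them Dnah11 and Ccdc39 of the motile axoneme. Evc overlaps Crmp1 on the opposite strand, which was called lower at D5, where the authors' deposited table gives -0.31 (adjusted p = 0.0444). The sources used here do not say whether reads were counted by strand, and the kit the labels name usually does not mark strand. Reads of such overlapping pairs may therefore not be told apart.

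The regulators of motile cilia were not called at D5 either. Foxj1, the master factor of motile cilia, had a log2 fold change of 0.011 in the authors' deposited table for D5, at a low average log2 CPM of 0.87. For the RFX factors Rfx2, Rfx3 and Rfx4 the authors' deposited table gives -0.10, 0.14 and -0.063, with average log2 CPM of 3.53, 6.62 and 6.69. The dynein heavy chain gene Dnah11 stood at -0.16 (95% interval -0.44 to 0.12), Spef2, of the central pair apparatus, at -0.24 (-1.17 to 0.70) and Ccdc39, the ruler that sets axonemal repeats, at 0.011 in the authors' deposited table. Spef2 had an average log2 CPM of -0.46, and its interval reached past a 2-fold change.

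**Figure D2:**
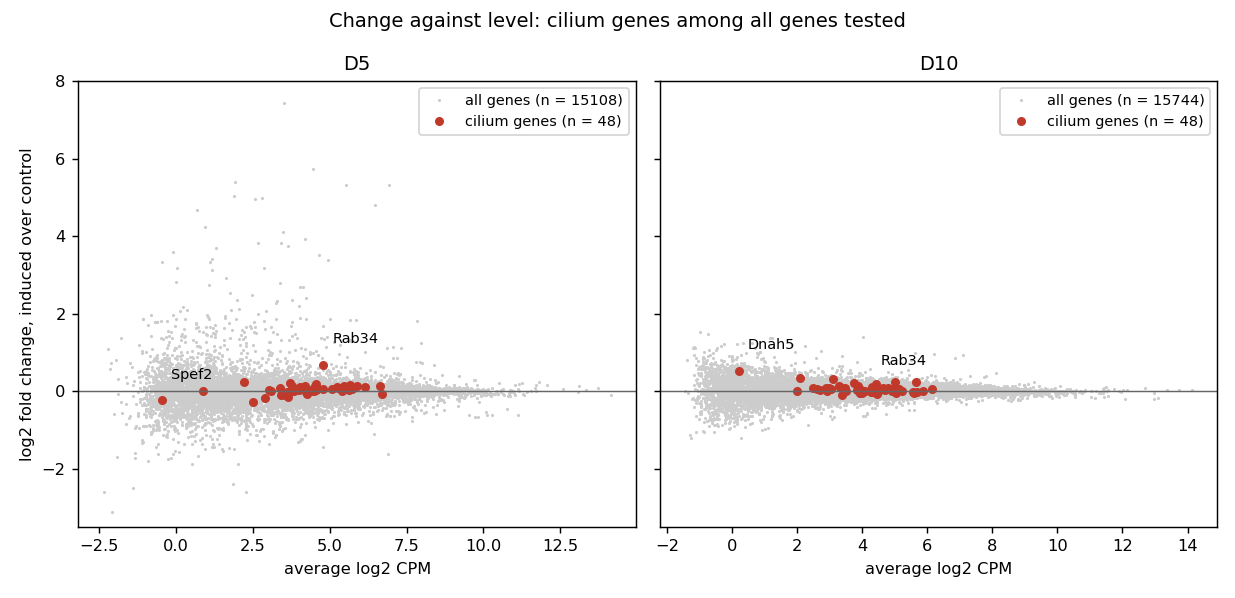
Log2 fold change (y axis) against average log2 CPM (x axis) for all genes of each day (grey) and the 48 cilium genes tested (red). At D5 all cilium genes but Rab34 lie between -0.28 and 0.24, inside the grey cloud, and at D10 the highest is Dnah5 at 0.52.

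The second comparison asks what was left 5 days after the drug was removed. At D10, 0 of the 48 cilium genes tested were called. Over all genes of the authors' deposited table for D10, 0.0826% were called. At an unadjusted p under 0.05 the group also held 0 genes, and all genes held 1.53%. The p-values at D10 ran large: the median size of z over all genes was 0.407 at D10 and 0.618 at D5, against 0.674 for a standard normal. SEs derived from those p-values were somewhat larger at D10 than at D5, with group medians of 0.16 and 0.13. D10 also had 3 samples per group, against 4 at D5. Single values ran from -0.10 (Ift22) to 0.52 (Dnah5), with a median of 0.033 against 0.0027 for all genes and 31 of 48 above 0 (64.6%, against 51.1% of all genes). Intervals lay within 1.5-fold for 42 of the 46 genes that had one, and within 2-fold for 45. The 4 that reached further than 1.5-fold were Evc, B9d2, Dnah5 and Ccdc39.

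Rab34 stood at 0.12 in the authors' deposited table for D10, with a 95% interval from 0.879-fold to 1.34-fold. The smallest p-value of the group at D10 belonged to Rfx3, which acts in building primary as well as motile cilia. It stood at 0.23 in the authors' deposited table (95% interval -0.0068 to 0.46, p = 0.0570, adjusted p = 1). With p-values rescaled within bins of expression, Rfx3 passed at D10 with an adjusted p of 0.0483, and 0.756% of all genes were called. Rfx4, a neural RFX factor needed for dorsal midline development, stood at 0.24 (-0.088 to 0.57), Rfx2 at 0.053 and Foxj1 at 0.047 in the authors' deposited table. All 4 factors were above 0, and none was called. The 8 neural progenitor markers were all above 0 at D10 as well, with a median of 0.18 in the authors' deposited table and 0 called.

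Of the axonemal genes at D10, Dnah5, an outer arm dynein heavy chain, stood at 0.52 in the authors' deposited table (95% interval -0.10 to 1.14, p = 0.102), at a low average log2 CPM of 0.21. Ccdc39 stood at 0.31 (-0.08 to 0.71) and Dnah11 at 0.077 in the authors' deposited table. Spag6l, a near relative of Spag6 that once carried its name and is not counted in the group, stood at -0.84 at an average log2 CPM of -0.46 (p = 0.0251, adjusted p = 1) in the authors' deposited table.

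The genes of primary cilia were close to 0 at D10. The IFT-B genes of the authors' deposited table ran from -0.10 to 0.086 with a median of -0.010 and 4 of 11 above 0. The IFT-A genes Ift43, Ift122 and Ift140 stood at -0.082, 0.18 and 0.065, and the motor genes ran from -0.039 (Kif3b) to 0.084 (Dync2h1) in the authors' deposited table. The 9 BBSome genes and partners ran from -0.012 (Bbs2) to 0.14 (Bbs1). Ift27 and Bbs12 had a p-value of 1 and no interval. The transition zone genes ran from -0.055 (Tmem231) to 0.21 (Rpgrip1l) in the authors' deposited table, and of the Evc complex Evc stood at 0.35 (95% interval -0.081 to 0.78), Evc2 at 0.07 and Iqce at -0.019. Of 12 floor plate markers tested at D10, 6 were higher (Shh, Slit2, Spon1 and Ntn1 with the smallest p-values) and 0 lower, and their median in the authors' deposited table was 0.65.

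The last comparison sets the response at D10 against that at D5, days that share no library. The difference was tested here from both log2 fold changes and their SEs, over the 14792 genes in both tables, of which 1.24% were called. Of the 47 cilium genes in both tables, 0 were called, and 1, Rab34, had an unadjusted p under 0.05, as did 4.91% of all genes. The difference for Rab34, D10 minus D5, was -0.56 on the log2 scale, with a 95% interval from -0.95 to -0.17. From the log2 fold changes and p-values of the authors, its p was 0.00456 and its adjusted p = 0.241. It is therefore not shown that Rab34 responded differently on the 2 days. With the p-values of the authors rescaled within bins of expression, the difference passed (adjusted p = 0.0104), and 2.44% of all genes were called. The next smallest p-value of the difference was 0.119, for Rfx4, which went from -0.063 to 0.24 in the authors' deposited tables. Of the 47 genes, 23 were above 0 on both days, 3 below 0 on both, 14 above 0 at D5 only and 7 at D10 only.

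**Figure D3:**
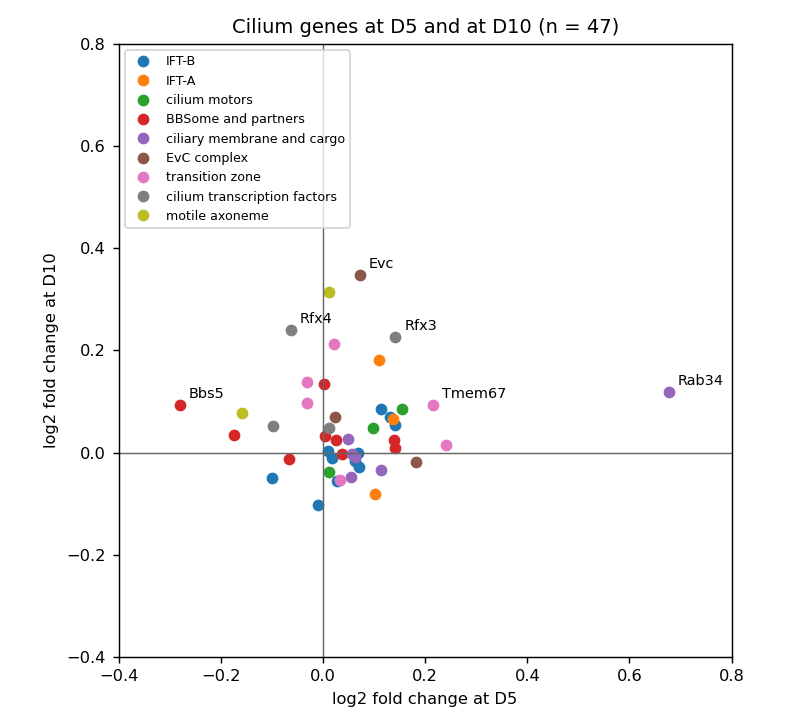
Log2 fold change at D5 (x axis) against that at D10 (y axis) for the 47 cilium genes in both tables, coloured by class. Rab34 stands apart to the right at 0.68 and 0.12, while the others cluster around 0 on both axes.

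Levels of the cilium genes are set side by side for the days, although each day was normalized on its own and the averages pool induced and control samples, so no test was made. Of the 47 genes in both tables, 32 had a lower average log2 CPM at D10 and 15 a higher one, with a median difference of -0.23, while 50.4% of all genes were higher at D10. All 6 transition zone genes and all 3 Evc complex genes were lower at D10. Rfx4 had the largest drop, from 6.69 to 5.00 in the authors' deposited tables. Ift74 went from 6.16 to 4.79, Evc from 3.37 to 2.10 and Dync2h1 from 5.66 to 4.65 in the authors' deposited tables. The largest gain was that of Foxj1, from 0.87 to 2.62, followed by Ift20 from 3.41 to 3.99 and Bbs5, which was 0.49 higher, in the authors' deposited tables. Of the motile axoneme genes analysed on both days, Dnah11 went from 3.65 to 2.48 and Ccdc39 from 3.07 to 3.11 in the authors' deposited tables. Each overlaps a protein-coding gene of higher level on the opposite strand. Cdca7l, which overlaps Dnah11, went from 5.491 to 3.998 in the authors' deposited tables. Ttc14, which overlaps Ccdc39, went from 6.196 to 6.251 there. The levels of Dnah11 and Ccdc39 may therefore include reads of these partners, which was not tested.

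**Figure D4:**
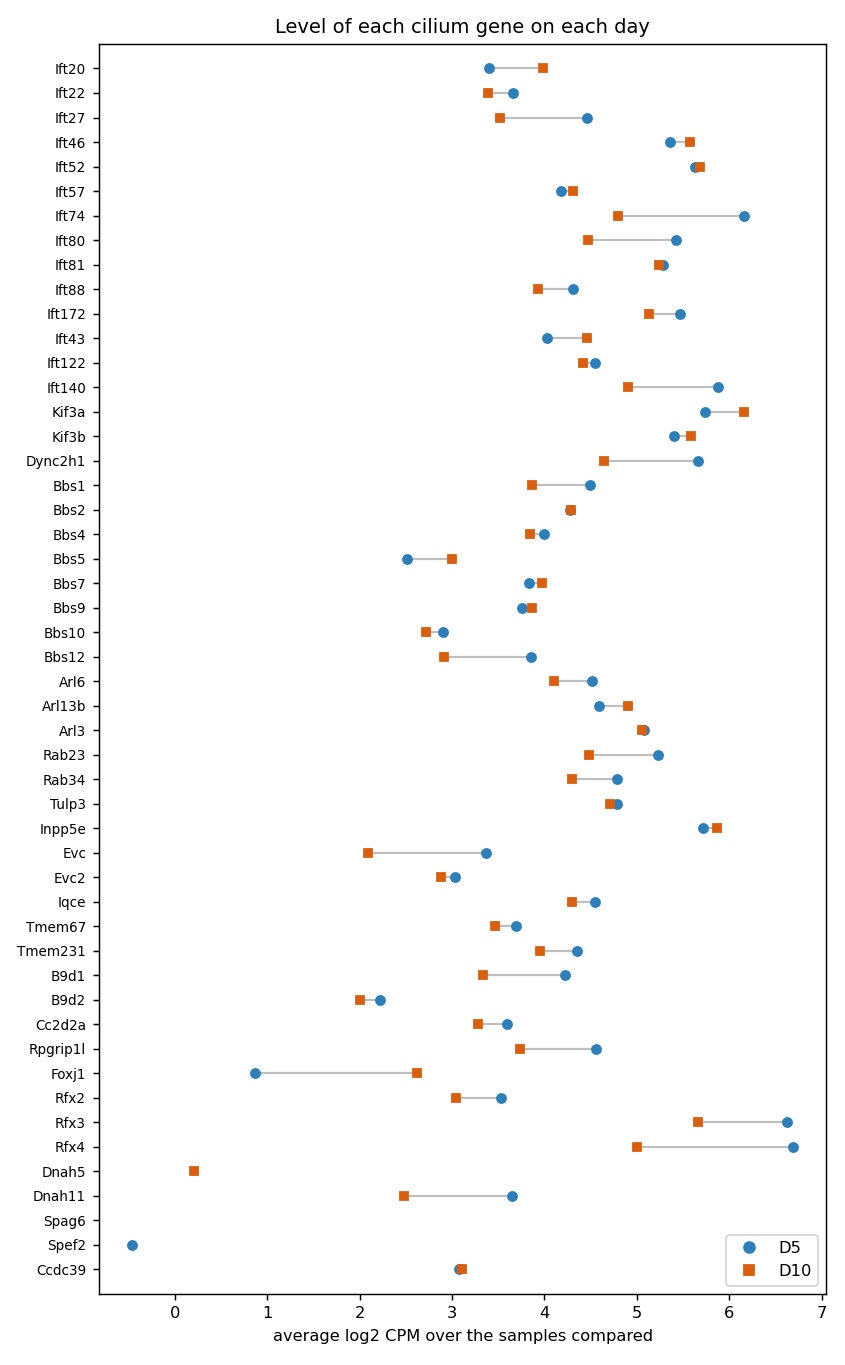
Average log2 CPM of each cilium gene (rows) at D5 (circles) and D10 (squares), joined by a line where the gene was in both tables. Foxj1 moves furthest to the right, from 0.87 to 2.62, and Rfx4 furthest to the left, from 6.69 to 5.00.

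Per length of the longest protein-coding transcript in GENCODE M21, Arl3 had the highest level of the group on both days, at 33.6 CPM per kb at D5 and 33.0 at D10. Ift74 (33.5 CPM per kb), Rfx4 (29.3), B9d1 (22.8) and Ift52 (22.1) followed at D5. Rab34 was 9th of 48 at D5 with 16.4 CPM per kb and 10th at D10 with 11.7. Genes of motile cilia were at the bottom of the D5 order, with Dnah11 at 0.892, Foxj1 at 0.695 and Spef2 at 0.103 CPM per kb. At D10 the lowest were Evc at 0.989, Dnah11 at 0.396 and Dnah5 at 0.0741 CPM per kb, while Foxj1 had reached 2.35. These levels have no spread over samples, so neighbours in the order cannot be separated. The order also depends on annotated length, and the longest transcript need not be the one expressed. Before division by length, Arl3 stood at 33.8 CPM and Rfx4 at 103 CPM at D5. At D10 Arl3 stood at 33.1 CPM and Kif3a at 71.3 CPM.

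A further 125 cilium genes outside the group gave a similar picture. At D5 the authors' deposited table holds 99 of them, of which 2 rose, 1 fell and 96 were not called, around a median of 0.026. Of all genes in that table, 4.44% were called. Ptch1, the Hedgehog receptor that sits in the cilium and is a direct target of the pathway, rose by 1.82 in the authors' deposited table (95% interval 1.58 to 2.05). Ahi1, a transition zone gene of Joubert syndrome, rose by 0.33 in the authors' deposited table (0.15 to 0.51, adjusted p = 0.0121). The lower one was Rfx6, an RFX factor best known from endoderm and pancreas rather than from cilia, at -0.89 (adjusted p = 0.00352) in the authors' deposited table. Ahi1 did not pass at an adjusted p under 0.01 or with Holm's adjustment, and Rfx6 did not pass with Holm's adjustment.

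By class, 0 of 15 other IFT and motor genes, 0 of 4 BBSome genes, 0 of 16 basal body genes, 0 of 9 disassembly genes and 0 of 3 polycystin genes were called at D5 in the authors' deposited table. Ahi1 was 1 of 14 transition zone and inversin genes, Ptch1 1 of 10 ciliary Hedgehog transducers and Rfx6 1 of 4 other Rfx factors. Of 39 further motile axoneme genes 21 were tested and 0 called, with values from -0.54 to 0.43. Of 7 regulators of multiciliation 3 were tested and 0 called. With 4.44% of all genes called at D5, lists this short would often hold 0 calls, so such a count sets no class apart. At D10, 103 of the 125 genes were tested and 0 called, where 0.0826% of all genes were called. Their median in the authors' deposited table for D10 was 0.035.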

How the data were processed

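RNA was sequenced from polyadenylated transcripts of 14 samples, as single-end reads, per the labels' protocols, which also call the reads stranded but name a kit (TruSeq RNA v2) that usually does not mark strand. Aligner, counting, test and build: not given in the sources used here. Per the file headers, the deposited values of an Entrez gene are its log fold change, its average log CPM, its p-value and its FDR. The log2 scale of the deposited CPM was checked by its sum after raising 2 to it, which is 1001543 for D5 and 1001340 for D10, and the fold changes were read on that scale too. Benjamini-Hochberg adjustment of the deposited p-values gives the deposited FDR within 3.41e-05, and the filter on low genes is not known.

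The genes and lists were chosen with earlier results of these data known. Symbols were matched with RefSeq's table of GRCm38.p6, which holds 94.6% of the identifiers on either day. All 50 genes are named, and of the other lists the called genes, at most 4 per list and day with the smallest p. Gli1 is named as the check of induction, and Crmp1, Cdca7l, Ttc14 and Spag6l were named after their values were seen. The implied SE is the size of the log2 fold change over that of z from the two-sided p-value. It inherits the authors' test and is unstable near a p of 1, and it is somewhat larger at D10, where the p-values ran large. The difference between days used a normal reference and Benjamini-Hochberg adjustment over all genes in both tables. Python 3.11.15, scipy 1.17.1 and statsmodels 0.14.6 were used, and the procedures were tested on simulated data.

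Alternatives were adjusted p under 0.01 or 0.1, Holm's adjustment, an average log2 CPM of at least 1, centring on the median of all genes, a weighted mean by inverse squared SE in place of the median, and z rescaled in bins of about 500 genes by level so that its median size is that of a standard normal. Counting Spag6l as Spag6 was added after seeing the data.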

Additional observations from a re-analysis of the deposited data

Results flagged for a closer look

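Of the 47 cilium genes in both tables, 0 had a response that differed between the days by the test of the difference itself, and of the further cilium genes named 1 did, Ptch1. Its log2 fold change was 1.82 at D5 and 0.28 at D10 (the authors' deposited tables), a difference of -1.54. From the p-values of the authors, the adjusted p of that difference was 1.79e-13. Gli1, the induced gene, also differed, by -4.22, from 4.79 under doxycycline to 0.57 after its removal (the authors' deposited tables, adjusted p of the difference 5.19e-40). No value per sample was used, so no sample could be compared with the others of its group.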

How the results depend on the processing

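The count of cilium genes called at D5 was 1, Rab34, under each of the 6 alternatives that test single genes and with Spag6l counted as Spag6. At D10 the count went from 0 to 1 (Rfx3) with rescaled z, which called 119 of all 15744 genes, and was 0 in the other alternatives. The count of genes that differed between days went from 0 to 1 (Rab34) with rescaled z, which called 361 of all 14792 genes, and was 0 otherwise. The number of further cilium genes called at D5 went from 3 to 1 with Holm's adjustment (Ptch1). Ahi1 also dropped out of that count at an adjusted p under 0.01. At D10 the number went from 0 to 1 with rescaled z (Ptch1, adjusted p = 0.00319 from the rescaled p-values of the authors). The rescaling assumes that most genes of a bin are unchanged. The cause of these moves was not tested. Centring moved no call, since the median of all genes was within 0.0027 of 0. The group's central value ran from 0.041 to 0.071 at D5 and from 0.030 to 0.045 at D10. No library could be left out, because the deposited values are comparisons. No paired analysis was possible because the files hold no values per sample. Depth is unknown, so what it limits could not be assessed. Spef2, Dnah5 and Foxj1 had an average log2 CPM under 1 on a day they were tested.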
